A study of Bos indicus with 9 samples.

Results

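The HOXD cluster on chromosome 2 was examined in consensus open chromatin regions (peaks) of hypothalamus, muscle, and liver. Every peak overlapping 20200000 to 21200000 of chromosome 2 on the ARS-UCD1.2 build was taken, a window of 1 Mb that reaches beyond the genes on both sides. The window held 39 of the 140923 peaks in the 3 lists. They were 20 of 78528 hypothalamus peaks, 18 of 40104 muscle peaks, and 1 of 22291 liver peaks. The peaks are called H1 to H20, M1 to M18, and L1 below, numbered by position within each tissue.

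Heifers 2047, 2054, and 2057 each gave hypothalamus, muscle, and liver, so there were 9 libraries with 3 per tissue. The animals were Brahman, a Bos indicus breed, not related to each other, had reached puberty, and were close in age and weight. The labels do not say which muscle was taken. ATAC-seq uses the Tn5 transposase to cut DNA that nucleosomes leave open, and the authors combined the 3 heifers of a tissue into 1 peak list. Neither values for each heifer nor read depths stand in the lists, so no spread between animals can be given and no test between tissues was possible. A peak missing from a list was therefore not called there, which does not show closed chromatin.

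HOXD genes encode homeodomain transcription factors that set position along the head-to-tail axis and along the limb. In mammals they are switched on in the order in which they lie on the chromosome, with HOXD1 and HOXD3 early and toward the head and HOXD13 late and toward the tail and the digits. Adult cells often keep the part of the cluster that was opened at their place of origin. Polycomb proteins keep the remaining genes silent, and the gene deserts on either side carry distant enhancers.

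The 9 members are HOXD1, HOXD3, HOXD4, HOXD8, HOXD9, HOXD10, HOXD11, HOXD12, and HOXD13, and the annotation used here placed only 2 of them on the build. HOXD4, a gene of the hindbrain and neck, lies at chr2:20759992-20762165 on the minus strand. HOXD10, a gene of the limb and lower spinal cord, lies at chr2:20793703-20796809 on the same strand. The other 7 members are placed only between neighbors, by the gene order in a RefSeq annotation of a Bos indicus assembly. HOXD1 and HOXD3 lie between MTX2 and HOXD4, HOXD8 and HOXD9 lie between HOXD4 and HOXD10, and HOXD11, HOXD12, HOXD13, and the homeobox gene EVX2 lie between HOXD10 and LNPK. No peak could be tied to the start site of an unplaced member. MTX2, which encodes a metaxin of the mitochondrial outer membrane, lies at chr2:20568466-20643955 on the minus strand. LNPK, which encodes lunapark of the endoplasmic reticulum, lies at chr2:20906685-20996361 on the plus strand.

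Each peak has an area under the curve (AUC), which takes in both the significance and the length of the peak, and the −log10 p at its summit. Neither value was scaled between lists, so each AUC is given with its percentile, the percent of peaks in the same list that are as low or lower.

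Between the start sites of MTX2 and LNPK, where all 9 members lie, hypothalamus had 9 peaks covering 9045 bp, muscle had 8 peaks covering 6922 bp, and liver had none. The peaks at the MTX2 and LNPK starts are left out of these counts. Of the 9 hypothalamus peaks, 6 lay in the HOXD1 and HOXD3 interval, 1 in the HOXD8 and HOXD9 interval, and 2 in the interval of HOXD11 to HOXD13. Of the 8 muscle peaks, 3 lay in the HOXD1 and HOXD3 interval, 4 in the HOXD8 and HOXD9 interval, 1 next to the HOXD10 start, and 0 in the interval of HOXD11 to HOXD13. Hypothalamus peaks thus lay mostly between MTX2 and HOXD4, where HOXD1 and HOXD3 have no exact place. H14 and H15, which had the highest AUCs there, overlapped muscle peaks. Whether these places relate to body position was not tested. Of the 8 muscle peaks, 5 lay between HOXD4 and HOXD10 or next to the HOXD10 start. The intervals differ in length, with 116036 bp from MTX2 to HOXD4 and 31537 bp from HOXD4 to HOXD10. Hypothalamus peaks covered 6.25% and 2.48% of them, and muscle peaks 1.64% and 14.4%. Some peaks lay close together, with 117 bp between H12 and H13, 417 bp between H13 and H14, and 140 bp between M6 and M7.

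**Figure D1:**
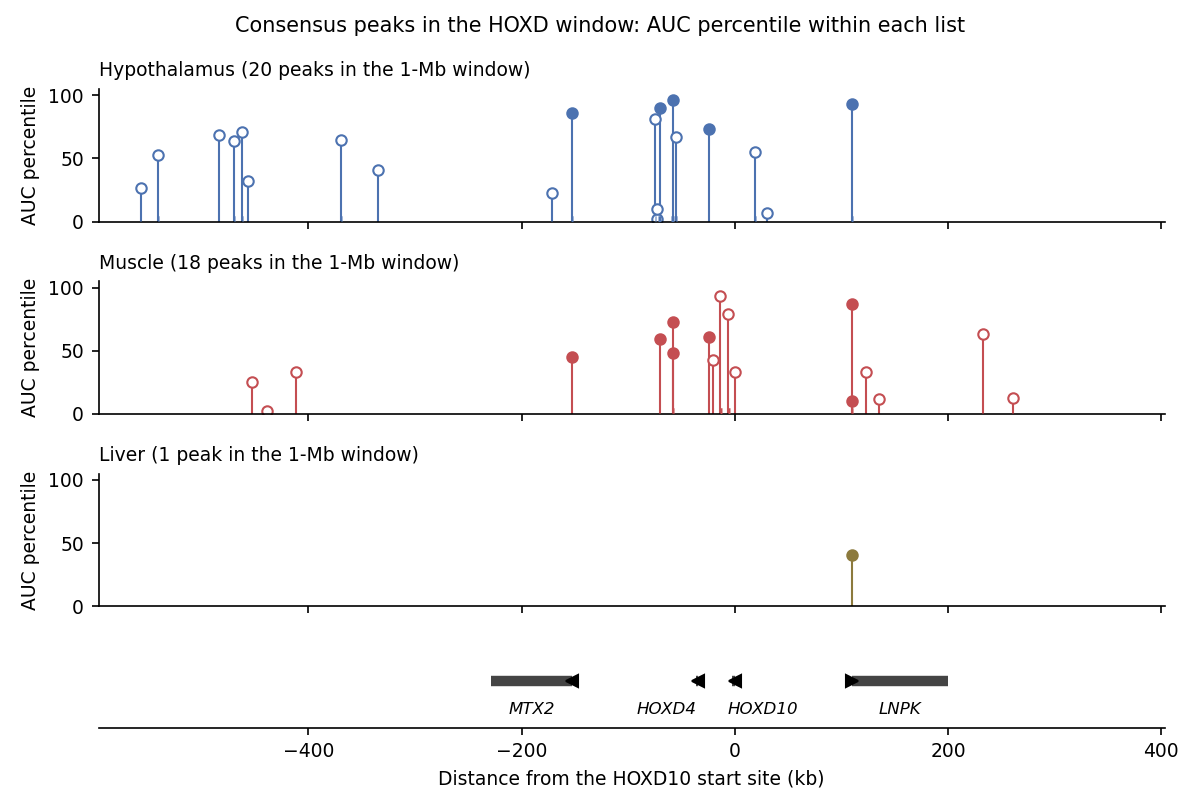
Each stem is a peak at its summit, placed by distance from the HOXD10 start site in kb (horizontal axis) with its AUC percentile within its own list (vertical axis), for hypothalamus, muscle, and liver. Open circles have no overlap in the other lists, filled circles overlap one, and bars at the bottom are placed genes with an arrowhead at the start. The last of the 20 hypothalamus peaks lies at the LNPK start, 4 of the 18 muscle peaks lie to the right of that start's peaks, and the 1 liver peak lies at the LNPK start.

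**Figure D2:**
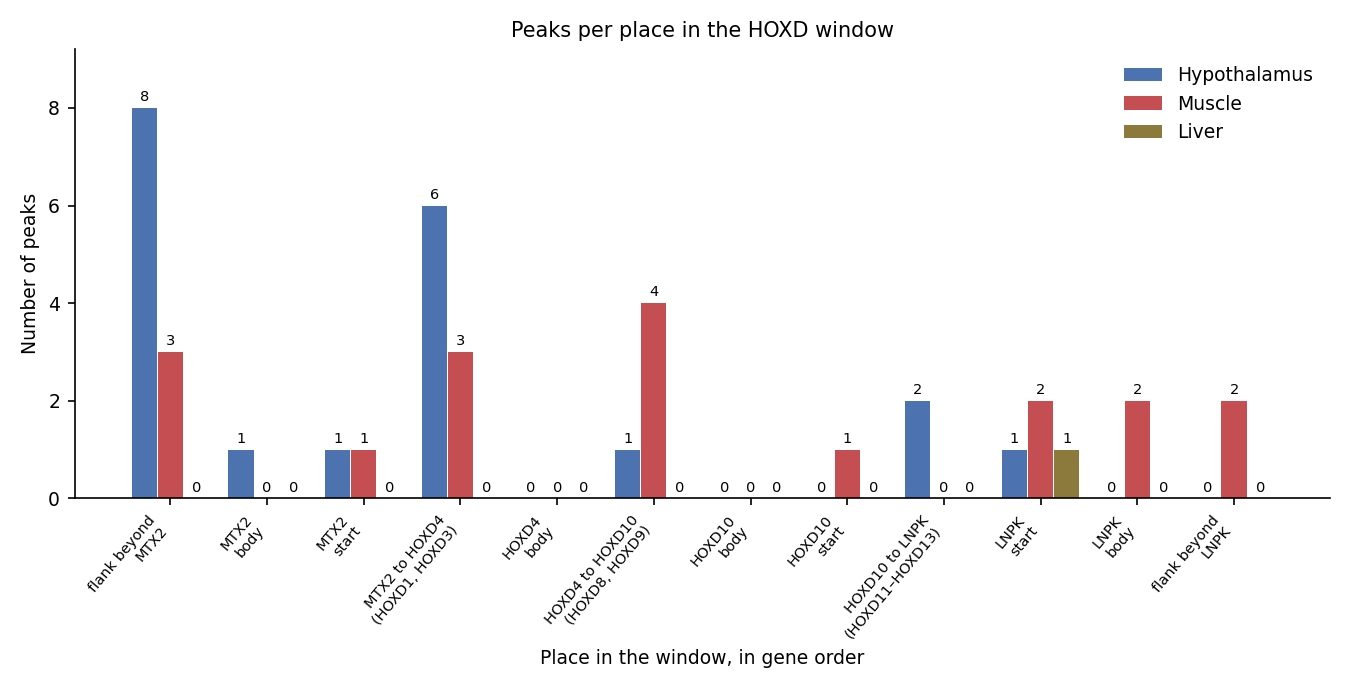
Bars give the number of peaks of each tissue in each place of the window, in gene order, with unplaced members in brackets under the interval that holds them. Hypothalamus has 6 peaks in the HOXD1 and HOXD3 interval against 3 in muscle, and muscle has 4 in the HOXD8 and HOXD9 interval against 1 in hypothalamus.

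The HOXD1 and HOXD3 interval held the hypothalamus peak with the highest AUC of the window, H15, while H20 at the LNPK start had a slightly higher summit −log10 p. HOXD1 takes part in the wiring of pain-sensing neurons in mice, and HOXD3 acts in the hindbrain and neck. Peak H15 (chr2:20737277-20739448, 2172 bp) had an AUC of 11306 and a summit −log10 p of 17.1, at the 95.9th percentile by AUC. Peak H14 (chr2:20724534-20727175, 2642 bp) had an AUC of 7129 and a summit −log10 p of 14.7, at the 90.3rd percentile. H11 (chr2:20721787-20722769) followed with an AUC of 3657, at the 81.1st percentile. The other 3 hypothalamus peaks of the interval were H16 with an AUC of 1585 and the small H13 and H12, with AUCs of 264 and 213. The 6 peaks spanned little of the 116036 bp between MTX2 and HOXD4, and covered 7252 bp, or 6.25%.

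Muscle had 3 peaks in the same interval, covering 1898 bp, and each lay wholly inside H14 or H15. M5 (chr2:20726044-20726727) lay in H14 and had an AUC of 880, at the 59.0th percentile of muscle. M6 (chr2:20738018-20738717) and M7 (chr2:20738858-20739371) both lay in H15, with AUCs of 640 and 1354. Their percentiles were 47.9 and 72.6, below the 95.9 of H15. The summits of M5 and H14 were 55 bp apart, those of M6 and H15 92 bp, and those of M7 and H15 346 bp. Hypothalamus and muscle thus shared both large regions, and H11, H12, H13, and H16 were called in hypothalamus alone. These are 4 of 6, beside 74.8% of all hypothalamus peaks on chromosomes 1 to 29 and X, so they do not set the interval apart.

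HOXD4 had no peak in its body and none within 1 kb of its start in any list. The nearest hypothalamus peak was 10035 bp away, the nearest muscle peak 10248 bp away, and the liver peak 144360 bp away. The microRNA gene MIR10B (chr2:20762743-20762841, minus strand), which lies next to HOXD4 and gives a microRNA that represses HOXD10 in human cells, had no peak within 1 kb either. Its nearest peaks were 9359 bp away in hypothalamus and 9572 bp away in muscle. Beside this, 73.1% of 654 annotated start sites on chromosomes 1 and 2 had a hypothalamus peak within 1 kb, 63.8% had a muscle peak, and 46.9% had a liver peak. Those start sites are only the ones given as nearest to a peak in the part of the authors' annotation used here, so the shares lie above those of all genes.

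In the HOXD8 and HOXD9 interval, the tissues shared 1 peak. H17 (chr2:20772200-20772981) had an AUC of 2194 and a summit −log10 p of 9.98, at the 73.2nd percentile. M8 (chr2:20772413-20772955) lay wholly inside it, with an AUC of 936 and a summit −log10 p of 5.69, at the 61.1st percentile. Their summits were 1 bp apart.

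The next 4 muscle peaks toward HOXD10 overlapped no peak of hypothalamus or liver. The same held for 36.0% of all muscle peaks on chromosomes 1 to 29 and X. M9 (chr2:20776027-20776689) had an AUC of 549, at the 42.5th percentile. M10 (chr2:20782557-20784354) had the highest AUC of the muscle peaks in the window, 3494 at the 93.3rd percentile. Its summit −log10 p was 7.55, below the 9.33 of M14 at the LNPK start. M11 (chr2:20790252-20791791) had an AUC of 1738, at the 79.4th percentile, and a summit −log10 p of 6.30. Both M10 and M11 lay downstream of the end of HOXD10, between the placed bodies of HOXD4 and HOXD10. M12 (chr2:20796823-20797302) lay 14 bp upstream of the HOXD10 start, with an AUC of 435 and a summit −log10 p of 4.06, at the 33.6th percentile.

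HOXD10 was thus the only placed member with a peak within 1 kb of its start, and only in muscle. The peak did not cover the start site, and its summit −log10 p stayed under 5. The nearest hypothalamus peak, H18, was 18760 bp from the HOXD10 start, and the liver peak was 109716 bp away. No list had a peak in the body of HOXD10.

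The peaks M9 to M12 lay in a stretch of 42587 bp (chr2:20772982-20815568) between neighboring hypothalamus peaks H17 and H18. They covered 4481 bp of it and had a summed AUC of 6217. Of 70998 stretches between neighboring hypothalamus peaks on chromosomes 1 to 29 and X, 540 held at least 4 whole muscle peaks, which is 0.761%. Another of the 540 was the stretch of 761532 bp after H20, which held M15 to M18 with a summed AUC of 1952. By summed AUC of muscle peaks it ranked 1015 of 70998, and the stretch between H17 and H18 ranked 103. Of the 57708 stretches no longer than the one between H17 and H18, 158 held as many. Where both lists were limited to summit −log10 p values of 5 or more, the stretch kept M10 and M11, and 2.14% of 45372 stretches held 2 or more such muscle peaks. This stretch was chosen after its values were seen, so these are descriptions.

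**Figure D3:**
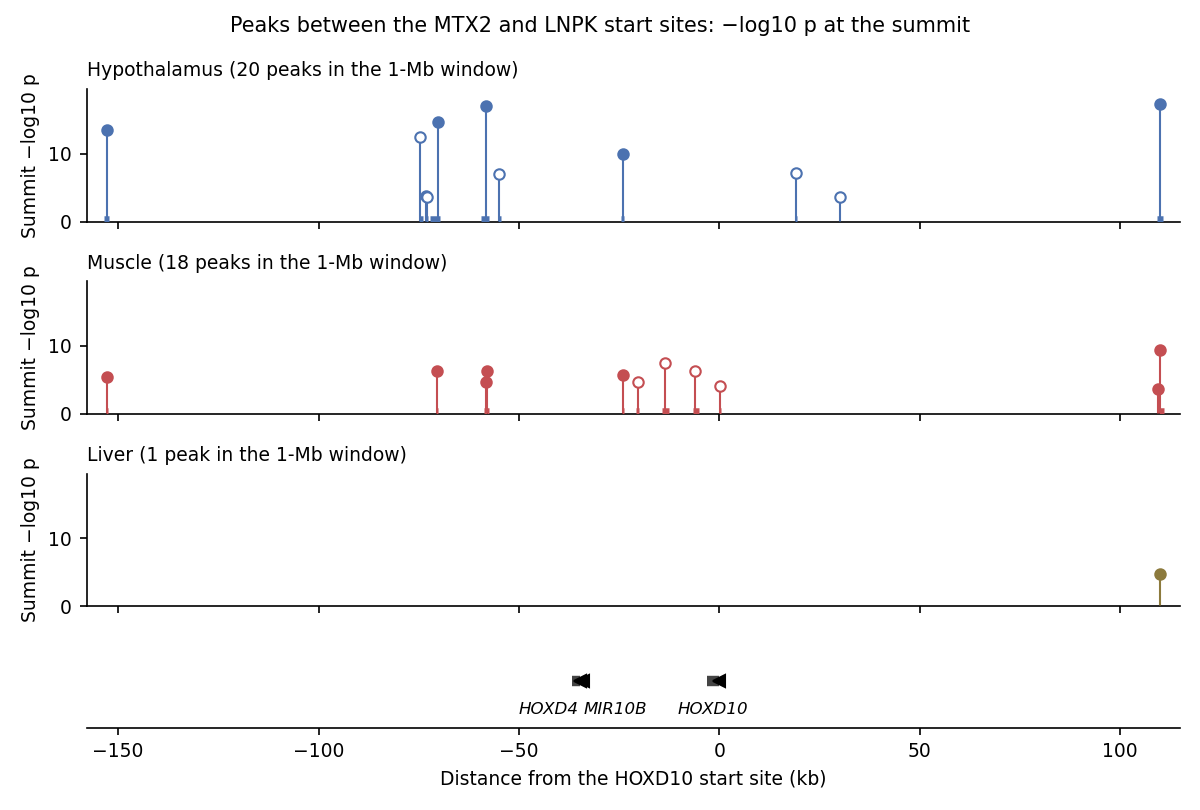
The region between the MTX2 and LNPK start sites is drawn by distance from the HOXD10 start in kb (horizontal axis) with the −log10 p at the summit (vertical axis); thick lines at the base give peak lengths, open circles have no overlap in the other lists, and filled circles overlap one. Muscle peaks M9 to M12 lie between hypothalamus peaks H17 and H18, and M12 stands next to the HOXD10 start.

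M10 and M11 were long but not as high in AUC per bp. M10 was 1798 bp long and M11 1540 bp, at the 96.4th and 94.6th percentiles of length in the muscle list. Their AUC per bp stood at the 64.6th and 31.0th percentiles. In contrast, H15 stood at the 93.7th percentile of length and the 94.8th of AUC per bp in hypothalamus. H14 was long in the same way as M10, at the 96.4th percentile of length and the 72.1st of AUC per bp.

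**Figure D4:**
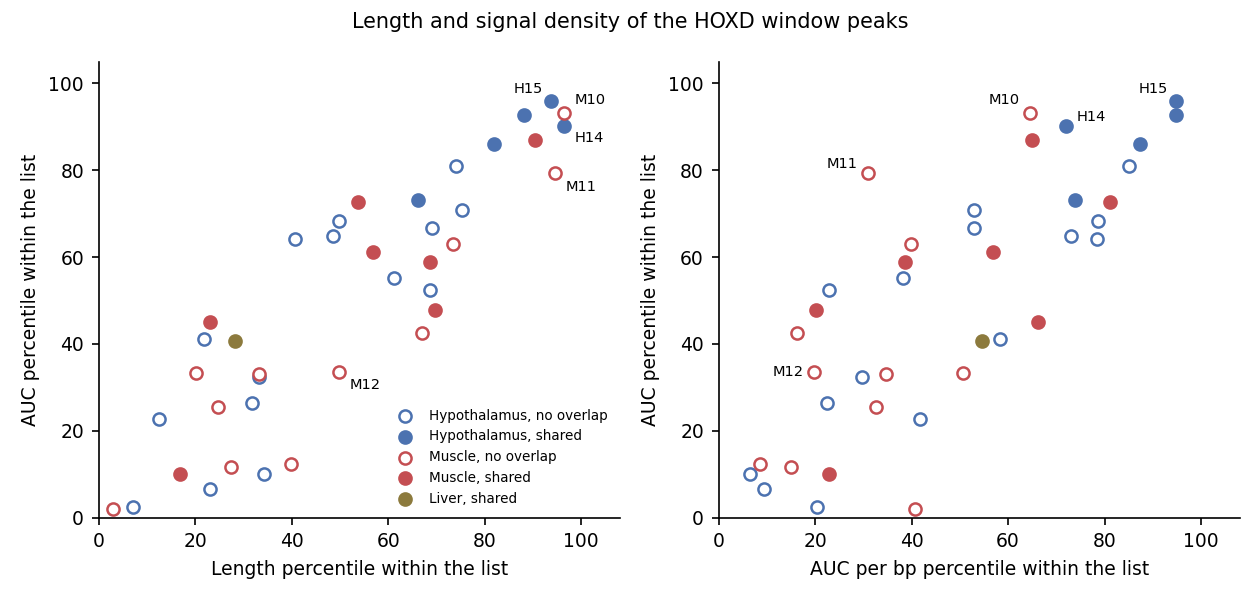
Each point is 1 of the 39 window peaks, with its AUC percentile (vertical axes) against its percentile of length (left) and of AUC per bp (right), all within its own list. M10 and M11 lie at the right in the length plot, at the 96.4th and 94.6th percentiles, and further left in the AUC per bp plot, at the 64.6th and 31.0th.

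The interval of HOXD11, HOXD12, HOXD13, and EVX2 was 109875 bp long and held 2 peaks of hypothalamus, which covered 0.92% of it. HOXD11, HOXD12, and HOXD13 pattern the outer limb and the genital bud, and EVX2 lies at the end of the cluster. H18 (chr2:20815569-20816261) had an AUC of 1004 and a summit −log10 p of 7.21, at the 55.1st percentile. H19 (chr2:20826711-20827028) had an AUC of 240 and a summit −log10 p of 3.64, at the 6.61st percentile. No other peak of the hypothalamus list lay between them and the LNPK start. Muscle had no peak for 108787 bp, from the end of M12 to M13 at the LNPK start. This length stood at the 84.8th percentile of stretches between neighboring muscle peaks, so longer ones were common.

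At the LNPK start all 3 tissues had a peak, and this was the only region of the window called in all 3. H20 (chr2:20905962-20907614) had an AUC of 8567 and a summit −log10 p of 17.3, at the 92.7th percentile. M14 (chr2:20906462-20907695) had an AUC of 2415 and a summit −log10 p of 9.33, at the 87.0th percentile. L1 (chr2:20906525-20906809) had an AUC of 461 and a summit −log10 p of 4.78, at the 40.8th percentile. All 3 peaks covered the start, and M13 (AUC 250) stood 338 bp upstream of it.

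At the MTX2 start the order of the tissues was the same but liver had no peak. H10 (chr2:20643295-20644605) had an AUC of 5213 and a summit −log10 p of 13.4, at the 85.9th percentile. M4 (chr2:20643886-20644180) had an AUC of 589 and a summit −log10 p of 5.37, at the 45.0th percentile. The starts of MTX2 and LNPK, the genes that flank the cluster, were therefore covered by peaks in hypothalamus and muscle, unlike those of HOXD4 and HOXD10.

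In the flank beyond MTX2, hypothalamus had 8 peaks (H1 to H8) with AUCs of 413 to 1927, and muscle had 3 (M1 to M3) with AUCs of 209 to 433. None of these 11 overlapped a peak of another list, beside list-wide shares without overlap of 74.8% in hypothalamus and 36.0% in muscle. M1, M2, and M3 lay together between H6 and H7, in a stretch of 86792 bp without a hypothalamus peak. H9, with an AUC of 373, lay in the body of MTX2. On the other side, muscle had M15 and M16 in the body of LNPK and M17 and M18 beyond it, with AUCs of 260 to 998, and neither of the other tissues had a peak there. After H20, the hypothalamus list had no peak for 761532 bp, a stretch longer than 99.6% of those between neighboring hypothalamus peaks, and it reached well past the end of the window.

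Sharing between tissues was counted with 1 bp of overlap. In hypothalamus, 15 of 20 window peaks had no overlap in the other lists (75%, Wilson 95% interval 53.1 to 88.8), beside 74.8% of its peaks on chromosomes 1 to 29 and X. In muscle, 11 of 18 had none (61.1%, interval 38.6 to 79.7), beside 36.0%. The muscle share in the window stood above that of the muscle list, and the hypothalamus share lay close to that of its list. Where every list was limited to summit −log10 p values of 5 or more, 3 of 8 muscle window peaks had no overlap (37.5%), beside 30.0% on the chromosomes. The 3 were M10, M11, and M17. The liver peak overlapped both other lists, and 7.78% of liver peaks overlapped neither. Intervals cover counting error only, and neighboring peaks are not independent. After overlapping peaks were joined, the window had 31 regions, with 15 in hypothalamus alone, 11 in muscle alone, 4 in these 2 tissues, and 1 in all 3. Joined regions were not counted over the chromosomes. These 4 counts therefore describe the window only, and the shares of single peaks above are no background for them.

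The window peaks that muscle had alone were mostly weak, apart from M10, M11, and M17 (AUC 998). Their median AUC was 433 (n = 11), beside 880 for the 7 shared muscle peaks. On chromosomes 1 to 29 and X these medians were 454 and 919. In hypothalamus the 15 unshared peaks had a median AUC of 916 and the 5 shared peaks one of 7129, beside 645 and 4604 on the chromosomes. M10, with an AUC of 3494, exceeded M14, which had the highest AUC of the shared muscle peaks, 2415.

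Where a hypothalamus and a muscle peak overlapped, the hypothalamus peak had the higher AUC percentile in 7 of 7 pairs. The pairs are made of 5 hypothalamus and 7 muscle peaks. The median difference was 31.3 percentile points and the median distance between summits was 55 bp. Over 18927 overlapping pairs on chromosomes 1 to 29 and X, the hypothalamus peak had the higher percentile in 81.7%, with a median difference of 15.1 points and a median distance of 36 bp. The smallest difference in the window was 5.77 points for H20 and M14, and the largest was 82.6 for H20 and M13.

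Compared with other windows of 1 Mb, the HOXD window lay near the median for hypothalamus and above it for muscle. Over 2604 windows on chromosomes 1 to 29 and X the median was 21 hypothalamus peaks (quartiles 8 and 39), 6 muscle peaks (1 and 16), and 2 liver peaks (0 and 5). The 20 hypothalamus peaks of the HOXD window stood at the 49.4th percentile, the 18 muscle peaks at the 80.0th, and the 1 liver peak at the 42.2nd. Its 11 unshared muscle peaks stood at the 89.6th percentile, against a median of 2. There were 0.9 muscle peaks per hypothalamus peak, beside a median of 0.333 over 2525 windows (92.9th percentile). Of all stretches between neighboring muscle peaks, 14.7% held at least 4 whole hypothalamus peaks. In the HOXD window 1 of them did, the stretch that runs in from before the window and holds H1 to H6.

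**Figure D5:**
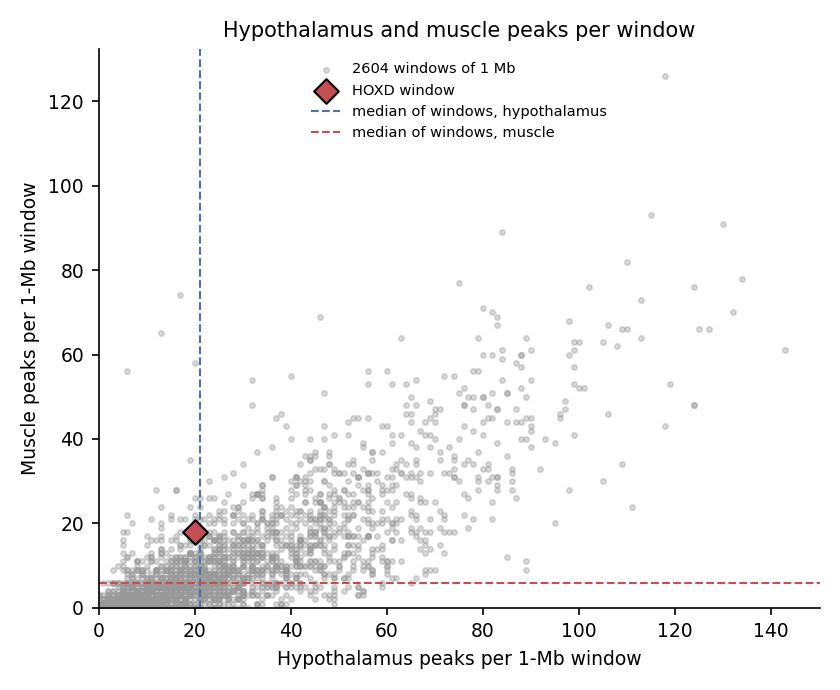
Each gray point is 1 of 2604 windows of 1 Mb, with its hypothalamus peaks (horizontal axis) and muscle peaks (vertical axis), dashed lines mark the medians of 21 and 6, and the diamond is the HOXD window. The diamond lies at 20 and 18, next to the hypothalamus median and above the muscle median.

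Other genes that act with HOXD factors were placed in few cases. PKNOX1 encodes a homeodomain protein that works with HOX proteins, and it had a peak within 1 kb of the start in every list. The AUCs at PKNOX1 were 27009 in hypothalamus (99.7th percentile), 8607 in muscle (98.6th), and 3210 in liver (93.1st). HOXB1, the only gene of the other HOX clusters placed by the part of the annotation used here, had no peak within 1 kb in any list, like HOXD4. EZH2, the methyltransferase of Polycomb complex PRC2, had none either. Of 51 tissue and cell markers, 2 were placed by that part. At DES, the desmin gene of muscle, the peak within 1 kb of the start had an AUC of 2483 in muscle (87.6th percentile). In hypothalamus the AUC there was 222 (3.72nd percentile), and liver had no peak within 1 kb. TWIST2, a fibroblast gene, had no peak within 1 kb of its start in any list. Markers of neurons, liver, glia, endothelium, and blood were not placed, so the labels and the cell makeup of the tissues were hardly checked here.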

How the data were processed

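The deposited data were 3 lists, 1 per tissue, that the authors made with HISAT2, allowing up to 10 alignments per read to ARS-UCD1.2, and Genrich 0.6.1, which removed PCR duplicates, left out the mitochondrial chromosome, applied p 0.01 at each position, and combined the 3 heifers by Fisher's method. The signal the authors deposited for each peak is the AUC, and the summit −log10 p was deposited without correction for multiple tests. The deposited score is AUC per bp scaled and limited to a maximum. Read counts and depth are not in the lists.

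Starts were counted from 0 and are printed from 1. Overlaps (1 bp), percentiles within lists, and distances to start sites (within 1 kb) were computed in python 3.11.15 (pandas 2.3.3, numpy 2.4.6, scipy 1.17.1) and drawn with matplotlib 3.10.9. The code was tested on simulated data. Gene spans on ARS-UCD1.2 are RefSeq positions carried in the authors' peak annotation, of which only a shortened copy was used here, so a gene not placed here may still be in the full annotation. Gene order came from the NIAB-ARS_B.indTharparkar assembly, used for names and neighbors only. Shares have Wilson 95% intervals.

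By rule, the text names the members, the other placed genes of the window, listed partner genes, peaks within 5 kb of a placed window gene, and the 5 window peaks with the highest AUC per list. Other peaks were named after their values were seen. The window, members, and lists were chosen with earlier results of these data known. As only HOXD4 and HOXD10 were placed, they stand for the first and last gene of the cluster in the span with 5 kb added. The motif search and the comparison of HOX clusters were not run, since no genome of the build was used here. A listed partner gene is not reported here.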

Additional observations from a re-analysis of the deposited data

How the results depend on the processing

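No paired analysis was possible because each list combines its heifers, and for the same reason no heifer could be left out. Of 64 alternative values, 34 stayed within 1.5 times the count, or within the interval of the percentile, and 30 moved. Stricter lists hold fewer peaks, but some values that moved, such as percentiles by AUC per bp, did not come from stricter lists. The cause was not tested. Where a summit of 5 or more was required, window peaks fell to 14 in hypothalamus, 8 in muscle, and 0 in liver. Unshared peaks fell to 9 in hypothalamus and 3 in muscle. From HOXD4 to HOXD10 with 5 kb added muscle had 5 peaks and then 3, between the MTX2 and LNPK starts 5, in the stretch around HOXD10 2, and the HOXD10 start then had 0. It also had 0 where a peak had to cover the start. Where peaks under 500 bp apart were merged, the window had 18 peaks in hypothalamus and 16 in muscle, and the stretch around HOXD10 kept 4 muscle peaks. With the strongest 12063 peaks of each list by AUC, hypothalamus had 4 window peaks and muscle 6, of which 2 and 4 were unshared. The share of unshared peaks over all peaks was not computed for these lists, nor for hypothalamus at a summit of 5 or more. Those unshared counts therefore have nothing to be compared with. From HOXD4 to HOXD10 hypothalamus and muscle then had 0 and 3, and between the MTX2 and LNPK starts 2 and 4. With as many by summit, the window held 5 in each, and 3 and 4 lay between those starts, with 2 muscle peaks in the stretch around HOXD10 (3 by AUC). With equal numbers H17 and H18 drop out, and that stretch is 166513 bp long in place of 42587 bp. By AUC, M8 is kept and then counts as unshared and as part of that stretch, though it overlaps H17 in the full lists. The counts between the MTX2 and LNPK starts and in that stretch were chosen after seeing the data. The percentile of H15 was 94.8 by AUC per bp and 94.0 by summit. That of M10 was 94.8 on chromosomes 1 to 29 and X, 64.6 by AUC per bp, and 77.6 by summit. That of L1 was 45.1, 54.6, and 43.0. The comparison of the 4 HOX clusters was not run. Depth was not in the lists, so a missing peak cannot be told from one below the threshold.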
